A study of Mus musculus with 2 samples.

Results

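The coagulation and anticoagulant genes of endothelium were compared in MS-1 and SVEC4-10, cell lines of mouse endothelium. The 10 genes, chosen by symbol, were Thbd, Procr, Pros1, Tfpi, Tfpi2, F3, F8, Vwf, F2r and F2rl1, and every probe set assigned to 1 of these genes alone was used. Of the 10 genes, 9 were represented, by 13 of the 45101 probe sets on each array, and are 9 of the 18193 genes named on the array. F2rl1, which encodes a protease-activated receptor cut by trypsin-like proteases, had no probe set of its own in the annotation used and was not analysed here.

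The MS-1 line comes from small vessels of the pancreas and the SVEC4-10 line from an axillary lymph node, and both were made immortal with the large T antigen of SV40. Total RNA was taken from 1 culture of each line, grown to confluence over 3 to 5 days and used up to passage 5. RNA from each culture was hybridised to 1 Affymetrix array, so there was no replicate check of any difference and no p-value was computed. MS-1 was kept in 5% fetal calf serum and SVEC4-10 in 10%, and the serum cannot be told apart from the line.

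Resting endothelium keeps blood fluid by several linked systems. Tissue factor (F3) starts coagulation by binding factor VIIa, and tissue factor pathway inhibitor (Tfpi) blocks this complex together with factor Xa. Thrombin bound to thrombomodulin (Thbd) activates protein C, which is presented by the endothelial protein C receptor (Procr), and activated protein C works with its cofactor protein S (Pros1). Thrombin also signals to cells by cutting protease-activated receptors such as the one encoded by F2r.

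The values are probe set signals on a linear scale (median 18.7 in MS-1 and 18.4 in SVEC4-10). Background, the 95th percentile of 129 probe sets of keratin-associated protein genes and of genes for odorant, pheromone and taste receptors, lay at 16.3 and 17.6. A value under background was raised to it before a ratio was taken, so such a ratio is a lower bound and is written as "at least". A gene was called apart at a difference of 4-fold or more. Log2 ratios divide SVEC4-10 by MS-1, and a signal is compared between the arrays for 1 probe set. The summed signals of marker lists are the exception: they add different probe sets, so the brightest weigh most. The error of a log2 ratio, from 4406 pairs of probe sets of the same gene, was 0.49 (0.55 for the dimmest pairs and 0.46 for the brightest), and it holds no variation between cultures. The poly-A transcripts added as controls gave 21 probe sets, on average 1.46-fold higher in SVEC4-10. Scaling to them would lower every log2 ratio by 0.54, and the share of called genes that were higher in SVEC4-10 from 57.1% to 35.8%.

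The array labelled SVEC4-10 went against its label in the general markers of endothelium. Of 14 endothelial markers, 12 were above background in MS-1 and 3 in SVEC4-10. Their summed signal was 25959 and 201, and 11 of the 12 measured were at least 4-fold higher in MS-1. Pecam1, Tie1 and Emcn, which define endothelium, were below background in SVEC4-10, and Kdr had a signal of 21.9 there against 1268 in MS-1. Flt1, the 1 measured endothelial marker that was not called, had signals of 115 in MS-1 and 65.3 in SVEC4-10. Sox17 and Cldn5 were below background on both arrays. Markers of mesothelium (5 of 6) and of fibroblasts and smooth muscle (8 of 9) were at least 4-fold higher in SVEC4-10, with summed signals of 179 and 14657 for the first list and 131 and 34363 for the second (MS-1, then SVEC4-10). Krt19, the other marker of the mesothelium list, was at least 6.85-fold higher in MS-1. Of the 4 markers of lymphatic endothelium, Flt4 had signals of 938 and 438 and Pdpn of 228 and 1693, while Lyve1 was at least 70.9-fold higher in MS-1 and Prox1 was below background in both lines. Megakaryocyte and platelet markers had summed signals of 215 and 120, with 0 of 4 measured called, and the representing probe sets of the 7 hepatocyte markers were all below background, although a further probe set of Hnf4a was above it on at least 1 array. The part of these cell identities in the differences given here was not tested. In bulk RNA, fewer cells of a type and less RNA per cell cannot be told apart. With 1 array per line, no result could be given without the SVEC4-10 array.

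**Figure D1:**
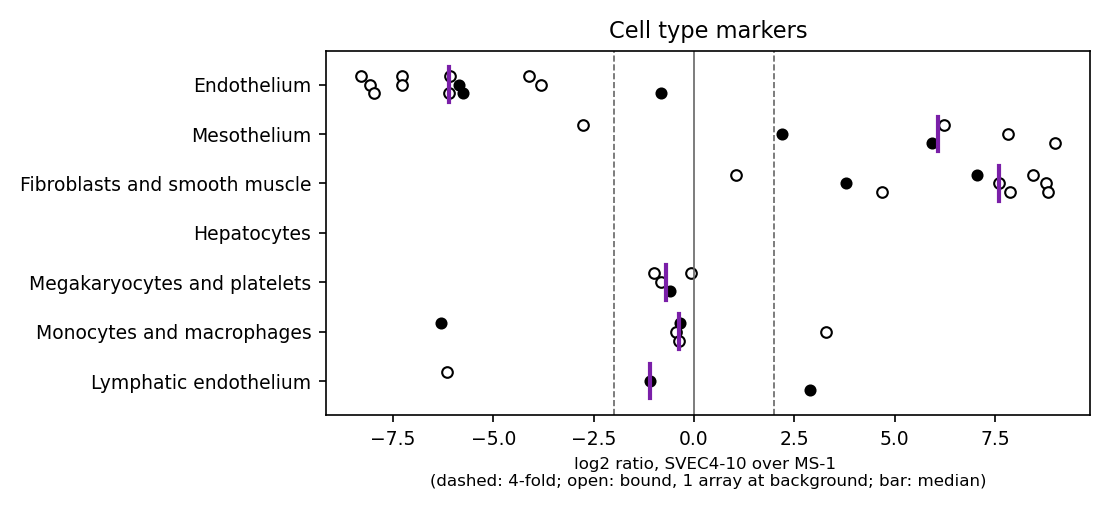
Log2 ratio of SVEC4-10 over MS-1 for the measured markers of each cell type (points, 1 per gene; open points are bounds with 1 array at background) with the list median as a bar. Endothelial markers lie to the left (median -6.10) and fibroblast and smooth muscle markers to the right (median 7.61), and no hepatocyte marker is plotted, since the representing probe sets were below background.

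Of the 9 genes, 4 were called higher in MS-1 (Thbd, F8, Procr and Tfpi2), against 4.24% of the 12454 genes measured on the arrays. F3 was the 1 gene called higher in SVEC4-10, against 5.65% of all measured genes. The other 4 (Tfpi, Pros1, Vwf and F2r) were under 4-fold apart. Thus 55.6% of the 9 genes were apart in either direction, compared with 9.89% of all measured genes, and the median log2 ratio was -0.60 against 0.015. The genes were chosen with earlier results of these data known, so these shares describe the chosen genes only. At 2-fold the same 5 genes passed, where 27.2% of all measured genes did. At 8-fold, Thbd and F8 remained on the MS-1 side and F3 on the other, where 2.24% and 2.75% of all measured genes passed (4.99% in either direction). All 9 genes exceeded background on at least 1 array: 4 of them in MS-1 only, 1 in SVEC4-10 only and 4 in both lines.

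**Figure D2:**
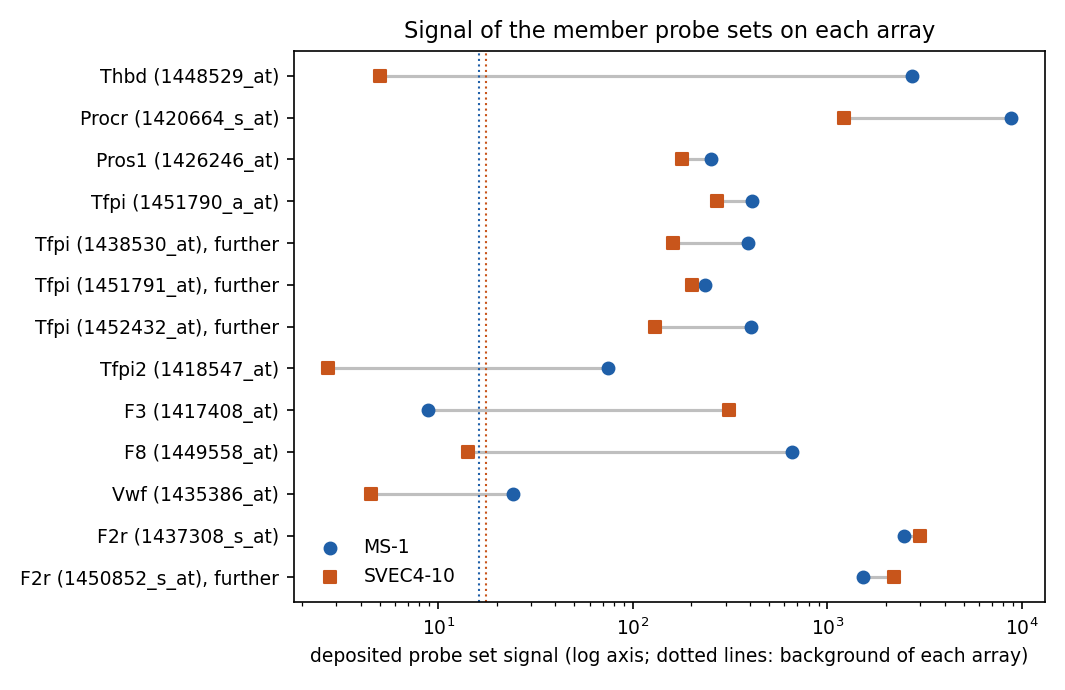
Deposited signal of each of the 13 probe sets in MS-1 (circles) and the SVEC4-10 array (squares), on a log axis, with the background of each array as a dotted line; "further" marks a probe set that did not represent its gene. Thbd, Tfpi2, F8 and Vwf cross from above background in MS-1 to below it in SVEC4-10, and F3 crosses the other way.

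The protein C pathway was represented by its 2 receptors and by protein S. Thbd, the thrombin receptor that turns thrombin towards protein C, had a signal of 2731 in MS-1 and 5.03 in SVEC4-10. The second value was below background, so Thbd was at least 155-fold higher in MS-1 (log2 ratio at most -7.28). Procr had a signal of 8730 in MS-1 and 1222 in SVEC4-10. Both arrays thus carried clear signal for Procr, which was 7.14-fold higher in MS-1 (log2 ratio -2.84 with an error of 0.49). The only Procr probe set belongs to a class whose probes can match more than 1 transcript (suffix _s_at). Pros1, the cofactor of activated protein C, which also assists Tfpi, had signals of 251 and 179. Its log2 ratio of -0.49 was no larger than the error of 0.49, although it was -1.03 with poly-A scaling. Within this pathway the receptors therefore differed by unequal amounts: Thbd was below background in SVEC4-10, while Procr was above background there.

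The trigger of coagulation, F3, was called towards SVEC4-10, and of the Kunitz inhibitors Tfpi was not called and Tfpi2 was called towards MS-1. F3, the cell-surface receptor for factor VIIa, had a signal of 8.82 in MS-1, below background, and 312 in SVEC4-10. It was at least 19.2-fold higher in SVEC4-10 (log2 ratio at least 4.26). Tissue factor is also made by fibroblasts and monocytes. Of 9 markers of fibroblasts and smooth muscle, 8 were at least 4-fold higher in SVEC4-10, with summed signals of 131 in MS-1 and 34363 in SVEC4-10. Of 7 monocyte and macrophage markers, 5 were measured. Cd14 was at least 9.82-fold higher in SVEC4-10, Cd68 was 79.4-fold higher in MS-1, and Itgam and Ptprc were below background on both. The summed signal of the monocyte and macrophage list was 3767 in MS-1, of which Cd68 alone gave 3645. In SVEC4-10 it was 265, of which Cd14 gave 160. The part of either list in the F3 difference was not tested.

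Tfpi, the Kunitz-type inhibitor of the tissue factor complex and factor Xa, was measured by 4 probe sets, all above background on both arrays. The brightest, which represents the gene, had signals of 408 in MS-1 and 270 in SVEC4-10, with a log2 ratio of -0.60 and an error of 0.49. The others had signals of 392 and 161 (log2 ratio -1.28), 403 and 130 (-1.63) and 234 and 202 (-0.22). All 4 were thus higher in MS-1, and none reached 4-fold in the values as deposited. With poly-A scaling the representing probe set had a log2 ratio of -1.14, and the probe set at -1.63 would pass 4-fold. Tfpi2, a related Kunitz inhibitor that acts mainly on plasmin and trypsin in the matrix, had a signal of 74.9 in MS-1 and 2.72, below background, in SVEC4-10. It was at least 4.25-fold higher in MS-1, just past the 4-fold rule, and with background doubled the bound became a log2 ratio of -1.09, which is under the rule.

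Of factor VIII and von Willebrand factor, which circulate as a complex, only the gene of the first was called, towards MS-1. F8, the cofactor of factor IXa, had a signal of 660 in MS-1 and 14.3, below background, in SVEC4-10. This made F8 at least 37.5-fold higher in MS-1. Vwf, which carries factor VIII and tethers platelets, had signals of 24.2 and 4.50. The MS-1 value was only slightly above background and the SVEC4-10 value was below it, so the difference was at least 1.37-fold and Vwf was not called. It would be called only if no background were applied (log2 ratio -2.43), and with background doubled it was not above background on either array. The megakaryocyte markers, a further source of Vwf, included Pf4 at signals of 35.3 and 16.1 and Itga2b at 111 and 73.4, while Ppbp was below background on both arrays.

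F2r, the main thrombin receptor of endothelium, had 2 probe sets with clear signal on both arrays. The representing probe set had signals of 2478 in MS-1 and 2990 in SVEC4-10, and the other had 1516 and 2188. Both were higher in SVEC4-10, with log2 ratios of 0.27 and 0.53 against an error of 0.49. With poly-A scaling the first turned to -0.27. Both F2r probe sets are of the class that can match more than 1 transcript. F2r thus differed by no more than about the error, whereas Thbd, which binds the same protease, was at least 155-fold apart.

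**Figure D3:**
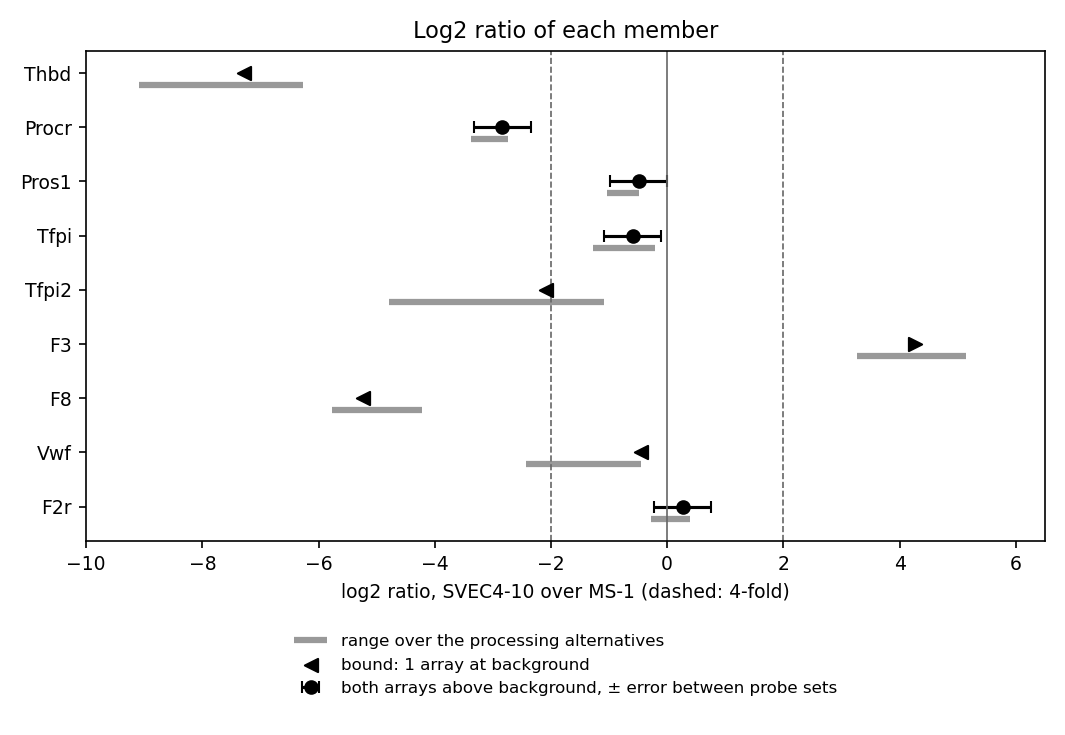
Log2 ratio of SVEC4-10 over MS-1 for the 9 genes; circles with bars show genes above background on both arrays with the error of 0.49, triangles show bounds, and grey bars the range over the processing alternatives. Thbd, F8 and Procr stay past the 4-fold line on the MS-1 side and F3 on the SVEC4-10 side, while Pros1, Tfpi and F2r stay inside it.

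**Figure D4:**
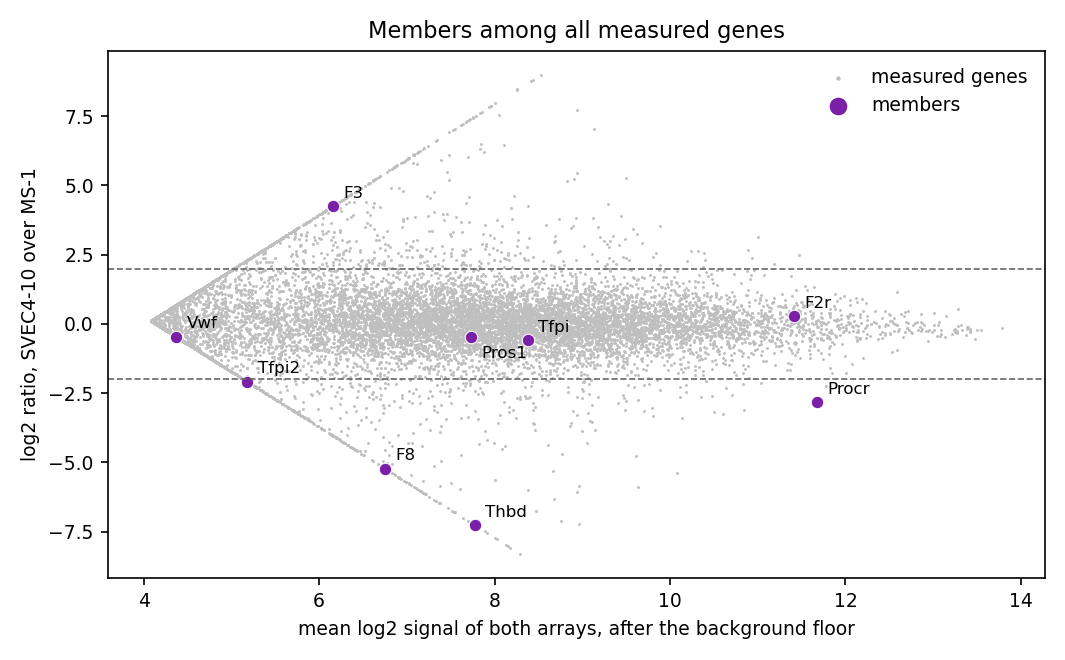
Log2 ratio of SVEC4-10 over MS-1 against mean log2 signal for the 12454 measured genes (grey) with the 9 genes labelled; the diagonal edges are genes at background on 1 array. Thbd, F8, Tfpi2 and Vwf lie on the lower edge and F3 on the upper edge, and Procr lies inside the edges at a log2 ratio of -2.84.

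Promoter sequence is shown for F3, Procr and F2r because they hold the same short motif while their log2 ratios were at least 4.26, -2.84 and 0.27. RefSeq windows of GRCm38.p6, from 250 bases before to 50 after a listed transcript start, were found for 7 of the 10 genes (10 windows). Each window was searched on both strands for 6 motifs: AP-1 (TGACTCA), SP/KLF (GGGCGG), ETS (CCGGAA), EGR (GCGGGGGCG), the motif AGATAA, which is read by GATA factors, and the TATA box (TATAAA). EGR and SP/KLF matches can overlap in runs of G. The AP-1 motif was found once each in the F3, Procr and F2r windows and in no other window of these genes, and 5.20% of all 32851 windows hold it. It stood 135 bases before the gene's 5′ end in F3, 62 in Procr and 204 in F2r. Below, the part of each window upstream of the annotated gene is printed 5′ to 3′ on the gene's strand with the AP-1 motif in capitals, from chr3:121723287-121723536 (plus strand), chr2:155750967-155751124 (plus strand) and chr13:95618467-95618716 (minus strand).
F3: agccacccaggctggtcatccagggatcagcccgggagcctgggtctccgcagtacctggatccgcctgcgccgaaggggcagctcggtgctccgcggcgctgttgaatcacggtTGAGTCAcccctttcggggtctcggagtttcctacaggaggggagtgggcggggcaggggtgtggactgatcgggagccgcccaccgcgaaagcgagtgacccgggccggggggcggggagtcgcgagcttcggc
Procr: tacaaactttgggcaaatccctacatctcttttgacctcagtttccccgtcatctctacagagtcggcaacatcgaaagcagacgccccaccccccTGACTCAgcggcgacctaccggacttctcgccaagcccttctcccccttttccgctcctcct
F2r: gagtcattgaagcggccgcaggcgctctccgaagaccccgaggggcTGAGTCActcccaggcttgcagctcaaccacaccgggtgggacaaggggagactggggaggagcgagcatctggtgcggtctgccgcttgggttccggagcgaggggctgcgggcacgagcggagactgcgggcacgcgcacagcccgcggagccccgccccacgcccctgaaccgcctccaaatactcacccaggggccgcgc

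The remaining motifs were spread unevenly over the windows. F3 held 3 SP/KLF matches and the TATA box letters, Pros1 held 5 SP/KLF matches, and F2r held 1 SP/KLF and 1 ETS match. In F3 the TATA box letters lay outside the upstream part printed above, in the bases that follow it. The Tfpi windows held 1 SP/KLF match each, with the TATA box letters on the opposite strand in one and a GATA motif in the other. The window of F8 and 2 of the 3 windows of Tfpi2 held none of the 6 motifs, and the other Tfpi2 window held 2 SP/KLF matches and an EGR match. SP/KLF, ETS and EGR motifs occur in 35.7%, 14.9% and 2.91% of all windows, the TATA box in 13.6% and the GATA motif in 11.2%. GC content was 70.3% in the F3 window, 68.7% in F2r, 66.7% in Pros1, 58.3% in Procr and 42.3% in F8, from 48.0% to 52.3% in the 2 Tfpi windows and from 43.7% to 57.3% in the 3 Tfpi2 windows, against a median of 52.7% over all windows. A match is a description of the letters in these windows only.

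Other genes of the clotting pathways were counted in 10 lists, also chosen with earlier results of these data known. Of 97 listed genes, 86 had a probe set and 59 were above background on at least 1 array. Of these 59, 12 were called higher in MS-1 (20.3%, against 4.24% of all measured genes) and 13 in SVEC4-10 (22.03%, against 5.65%), with 34 called in neither direction. The median log2 ratio of the 59 was -0.35. With poly-A scaling, 13 were called higher in MS-1 and 11 in SVEC4-10. The counts of each list below stand against the same shares of all measured genes, 4.24% higher in MS-1 and 5.65% in SVEC4-10.

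**Figure D5:**
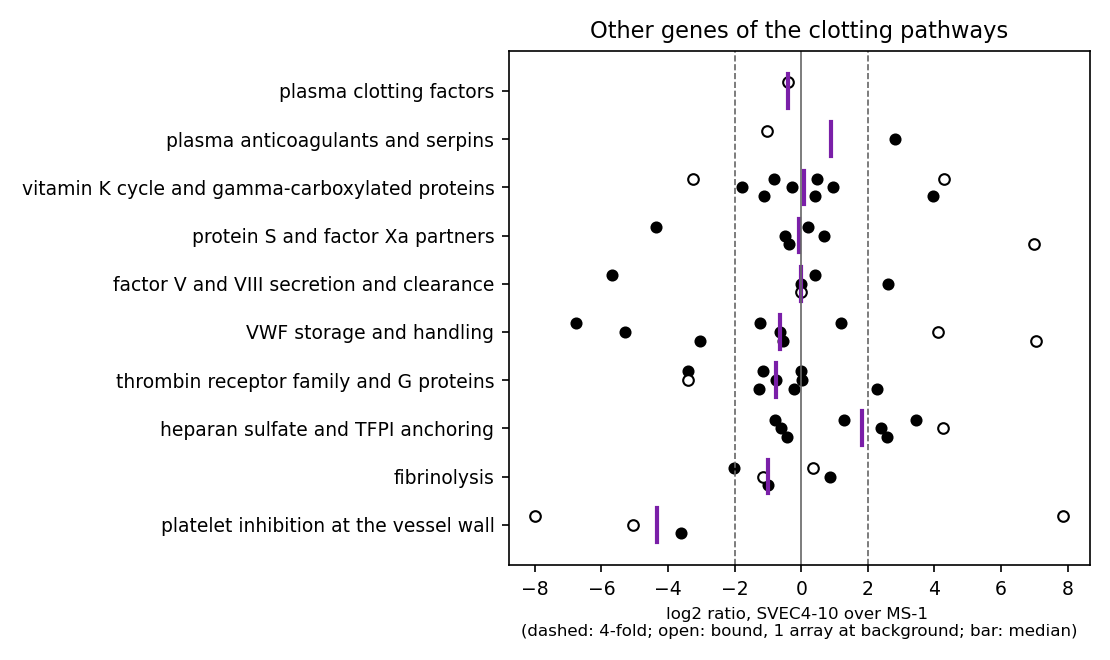
Log2 ratio of SVEC4-10 over MS-1 for the measured genes of 10 pathway lists (points, 1 per gene; open points are bounds with 1 array at background) with the list median as a bar. The heparan sulfate list has its median at 1.83 and no called gene on the MS-1 side, and the platelet inhibition list has its median at -4.33.

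Plasma clotting factors, most of them made by the liver, gave almost no signal. Of 14 plasma clotting factors, 13 were below background on both arrays, and F7, the enzyme partner of tissue factor, had a signal of 23.1 in MS-1 and 7.91, below background, on the other. Of 7 plasma anticoagulants and serpins with a probe set, 5 were below background on both arrays, among them Proc, which encodes protein C itself. Serpind1, heparin cofactor II, had signals of 19.1 and 134, 6.996-fold higher in SVEC4-10. Its MS-1 value was only slightly above background. Serpinc1, antithrombin, had a signal of 35.9 in MS-1 and was below background on the other, a difference of at least 2.04-fold.

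Partners of protein S and of vitamin K-dependent proteins differed in both directions. Of 6 measured genes in the list of protein S and factor Xa partners, 1 was called higher on each array. Both are receptors of the TAM family, which bind protein S or its relative Gas6. Axl had a signal of 1.28 in MS-1, below background, and 2083 in SVEC4-10, at least 128-fold higher there. Mertk had signals of 1768 and 85.5, 20.7-fold higher in MS-1. The other receptor of that family, Tyro3, had signals of 33.7 and 39.0. Anxa5 and Anxa2, which bind anionic phospholipid, had log2 ratios of 0.70 and -0.49. Pros1 itself had a log2 ratio of -0.49, but Gas6, its relative, had signals of 44.3 and 693, 15.7-fold higher in SVEC4-10.

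Gas6 belongs to the list of the vitamin K cycle and gamma-carboxylated proteins, in which 2 of 10 measured genes were called higher in SVEC4-10, 1 in MS-1 and 7 on neither. The median of 0.069 was -0.47 with poly-A scaling. Mgp, an inhibitor of calcification, was at least 19.5-fold higher in SVEC4-10, and Prrg3, a membrane protein with a gamma-carboxylated domain, at least 9.49-fold higher in MS-1. Nqo1, a quinone reductase, had signals of 282 and 82.0 (log2 ratio -1.78, or -2.32 with poly-A scaling). The carboxylase Ggcx, which matures protein S, had signals of 81.4 and 46.3, and its 2 probe sets gave log2 ratios of -0.81 and 0.56.

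Genes that serve factor VIII and VWF were divided as well. In the list of factor V and VIII secretion and clearance, 1 of 5 measured genes was called on each side, and the median was -0.0035. Stab1, a scavenger receptor, had signals of 1041 and 20.2, 51.6-fold higher in MS-1. Its SVEC4-10 value was only slightly above background. Lrp1, an endocytic receptor that clears factor VIII, had signals of 82.3 and 499, 6.06-fold higher in SVEC4-10, and its other probe set had a log2 ratio of 1.66. The cargo receptor pair for factors V and VIII, Lman1 and Mcfd2, had log2 ratios of 0.42 and -0.0071, or -0.12 and -0.55 with poly-A scaling.

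Of 9 measured genes of VWF storage and handling, 3 were called higher in MS-1 and 2 in SVEC4-10, with 4 on neither and a median of -0.63. Selp, P-selectin, which is stored with VWF in Weibel-Palade bodies, had signals of 2548 and 64.7, 39.4-fold higher in MS-1. Angpt2, also stored there, had signals of 3699 and 34.2, a 108-fold difference, although the log2 ratio was -0.0099 at the other probe set. Igfbp7 was at least 131-fold higher in SVEC4-10, where its other probe set had a log2 ratio of 1.55, and Rab3b, a small GTPase of secretory granules, at least 17.3-fold.

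In the family of thrombin receptors and their signalling partners, 2 of 9 measured genes were called higher in MS-1, 1 in SVEC4-10 and 6 on neither (median -0.75). F2rl3, a low-affinity thrombin receptor of platelets and some endothelium, had a signal of 186 in MS-1 and 2.39, below background, in SVEC4-10, at least 10.5-fold higher in MS-1. F2rl2, which lies on chromosome 13 as F2r does, had signals of 33.3 and 28.9. The arrestins, which turn receptors off, differed in opposite directions: Arrb1 had signals of 643 and 60.4 (10.7-fold higher in MS-1) and Arrb2 of 48.8 and 234 (4.80-fold higher in SVEC4-10, or a log2 ratio of 1.72 with poly-A scaling, under the rule). Gnaq, the G protein subunit that couples these receptors to phospholipase C, had a log2 ratio of -1.27. The receptors F2r and F2rl3 thus differed in their values, with log2 ratios of 0.27 and at most -3.40.

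Heparan sulfate genes, whose products hold antithrombin and TFPI at the cell surface, included 4 of 8 called higher in SVEC4-10, 0 in MS-1 and 4 on neither, where 5.65% and 4.24% of all measured genes were called. The median was 1.83, or 1.29 with poly-A scaling. Gpc1, a glypican, was at least 19.2-fold higher in SVEC4-10. The syndecans Sdc4 and Sdc2 were 10.9-fold and 5.97-fold higher there, but the other probe set of Sdc4 had a log2 ratio of -0.25. Of the 3 Sdc2 probe sets, the lowest log2 ratio was 1.82, under the rule. Hs3st1, which makes the antithrombin-binding site, had signals of 19.7 and 103, 5.23-fold higher in SVEC4-10, or a log2 ratio of 1.84 with poly-A scaling, under the rule. The MS-1 value of Hs3st1 was only slightly above background.

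Of 5 measured fibrinolysis genes, Plaur, the urokinase receptor, was the 1 called gene, with signals of 1868 and 459, 4.07-fold higher in MS-1. Plat, tissue plasminogen activator, had signals of 1784 and 887 (log2 ratio -1.01), and Plau was at least 2.24-fold higher in MS-1. Plgrkt, a plasminogen receptor, had a log2 ratio of 0.87. Among 4 measured genes that restrain platelets at the vessel wall, 3 were called higher in MS-1 and 1 in SVEC4-10. Of all measured genes, 4.24% and 5.65% were called in these directions. Nos3, also among the endothelial markers, was at least 253-fold, Entpd1, which breaks down ADP, at least 33.3-fold and Ptgs2, a prostaglandin synthase, 12.2-fold higher in MS-1. The 3 Entpd1 probe sets gave log2 ratios from -5.06 to -2.83. Ptgis, the prostacyclin synthase, had a signal of 14.2 in MS-1, below background, and 3810 in SVEC4-10, at least 234-fold higher there.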

How the data were processed

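The deposited values are intensities, 1 per probe set and array, on a linear scale. Per the labels' protocols, 6 µg of Trizol-extracted total RNA was turned into biotin-labelled cRNA for an Affymetrix array. How probe signals were summarised, and with which software, is not given in the sources used here. A 2%-trimmed mean of 150.001 was found in both columns, and the values were used as deposited.

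Probe sets were named by the platform annotation, updated by gene identifier to RefSeq (GRCm38.p6). Of 45101 probe sets, 34945 had 1 gene (34741 matched), 932 several, 9160 none and 64 were controls. A gene was represented by its probe set of highest mean log2 signal, avoiding the suffix _x_at. Differences were called by size (4-fold). Python 3.11.15 and pandas 2.3.3 were used, and the steps were tested on simulated data. The number of arrays limits the precision. The members and lists were chosen with earlier results of these data known. All members were named, and up to 4 measured genes per list with the largest absolute log2 ratio. Outside that rule, Proc, Tyro3, Ggcx, F2rl2, Itgam, Ptprc and Ppbp were named after their values were seen. So were Tie1, Kdr, Flt1, Sox17, Cldn5, Krt19, Prox1 and Hnf4a. Of 97 pathway genes, 11 without a probe set were not analysed here.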

Additional observations from a re-analysis of the deposited data

How the results depend on the processing

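No paired analysis was possible because each line had 1 array, and no array could be left out. Ratios were recomputed after quantile normalization, after centring on their median and after poly-A scaling. Background was doubled, left out, or set to the 40th percentile of the whole array. Probe sets were averaged, restricted to the specific classes, or replaced by that of smallest ratio, and 2-fold and 8-fold limits were tried. Of the genes compared, 4 were called higher in MS-1, with 3 to 5 over the alternatives at 4-fold and 2 at 8-fold, and 1 in SVEC4-10 under every alternative. Thbd, F8 and F3 were called in all 9 alternatives at 4-fold and Procr in the 8 that gave it a value. Tfpi2 was not called with background doubled, and Vwf was called only without a background. F2r and Procr had no value when less specific classes were left out, nor Vwf with background doubled. No called gene changed direction. Pathway genes called higher in MS-1 numbered 20 at 2-fold against 12, and those higher in SVEC4-10 8 at 8-fold against 13. Over all genes, 528 were called higher in MS-1, against 864 when scaled to the poly-A controls, 888 without a background, 1498 at 2-fold and 279 at 8-fold. In SVEC4-10 704 were called, against 481 when scaled to the poly-A controls, 1031 without a background, 1895 at 2-fold and 342 at 8-fold. The thresholds set those counts by construction. For the other changes the cause was not tested. Signals near background, as for Vwf and Tfpi2, limit what can be said of these genes.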
